A study of Homo sapiens with 12 samples.

Results

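The genes described here are the core regulators of the G1 phase of the cell cycle and one atypical cyclin, followed through RNA-seq of KELLY cells given morpholino oligonucleotides. They were chosen by symbol, as 10 of the 55771 genes in the deposited table: the D-type cyclins CCND1, CCND2 and CCND3, the kinases CDK4 and CDK6, the inhibitors CDKN1B, CDKN1C and CDKN2C, the retinoblastoma gene RB1, and CCNI. KELLY is 1 established human neuroblastoma line with amplified MYCN, so all groups share 1 genetic background. The 3 groups received a control oligonucleotide, BPS1 or BPS2, with 4 libraries each, called below by group and number. A morpholino is an uncharged antisense molecule, and each was paired with a DNA strand, the leash, that lets a lipid reagent carry it into cells. All cells were plated for 24 h with 10% serum, moved to 4% serum, given 50 nM of the complexes and lysed 48 h later, so the control libraries carry the transfection and the lowered serum too. The series concerns the long noncoding RNA NEAT1 and the nuclear bodies built on its long isoform.

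In G1, D-type cyclins bind CDK4 or CDK6, and the resulting kinases phosphorylate the RB1 protein, which then releases E2F transcription factors that drive the genes of S phase. CDKN2C belongs to the INK4 family, which binds CDK4 and CDK6 themselves, whereas CDKN1B and CDKN1C (p27 and p57) belong to the CIP/KIP family, which binds assembled cyclin and kinase complexes. CCNI carries the cyclin fold but is known as a partner of CDK5 rather than of the G1 kinases. In MYCN-amplified neuroblastoma, CDK4 is a known transcriptional target of MYCN, and CCND1 is commonly expressed at a high level.

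The deposited values are normalized counts, with an estimated 29.1 to 31.8 M reads behind each library and 32064 to 34025 genes above 0. Of all genes, 20454 reached 10 or more in 4 or more libraries and were tested with limma on log2(value + 1), and 9 of the 10 genes described here were among them. CDKN1C was not. A change is called where the two-sided p, adjusted after Benjamini and Hochberg over all genes tested, was under 0.05. Separate cultures are not stated in the labels, so the p-values speak to the spread of these libraries alone, and that spread may be technical. In bulk RNA, fewer cells of a type and less RNA per cell cannot be told apart. BPS2 values rest on a match of columns to sample titles, because the samples' description field reads KPAS instead, and 1 BPS1 column (replicate 3) is headed BSP1. NEAT1 averaged 6879, 2024 and 4262 normalized counts in control, BPS1 and BPS2, a log2 difference from control of -1.79 (adjusted p = 6.00e-06) and -0.69 (adjusted p = 0.0239, and up to 0.0907 when 1 BPS2 or control library was left out). These are values of the whole gene, which cannot separate its short and long isoforms. All 10 sympathetic neuroblastoma markers were tested and above 0 in every group, and their summed level was 258824 to 311745 in control, 199853 to 257733 in BPS1 and 233307 to 248655 in BPS2 libraries. Summed immune markers lay at 12.8 to 37.5, epithelial markers at 12.2 to 37.7, endothelial markers at 100 to 235 and mesenchymal and Schwann-like markers at 2154 to 3242. SOX10, PTPRC, CD3E, LYZ, CDH1 and KRT5 were too low to be tested. Control replicate 1 and BPS1 replicate 4 stood apart, with an SD over genes of their deviation from the gene's median of 0.471 and 0.594 against 0.377 to 0.425 in the other 10 libraries. In those 2 libraries the deviation also fell most steeply with transcript length, with Spearman's rho at -0.38 and -0.44. This rho was taken over genes that depend on one another. BPS2 replicates 2 to 4 leaned the same way (-0.22, -0.26 and -0.21), while the remaining libraries leaned the opposite way (0.09 to 0.32). A trend with GC content split the libraries the same way. Its rho was 0.25 in control replicate 1, 0.37 in BPS1 replicate 4 and 0.18, 0.22 and 0.13 in BPS2 replicates 2 to 4. In the remaining libraries it was -0.23 to -0.11. Both trends were thus partly split by group. Their part in the BPS2 comparisons was addressed only by a transcript length correction and a GC correction.

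With BPS1, CCNI was higher and CDK4 lower than in control, and the other 7 tested genes were not called. CCNI rose 2.02-fold (log2 fold change 1.01 ± 0.06, SE) and CDK4 fell by 28.3% (log2 fold change -0.48 ± 0.10). Thus 1 of 9 genes rose and 1 fell, where 8.6% of all genes tested were called in this comparison. In BPS2 libraries 1 of 9 was called, CCND1, which rose 1.49-fold (log2 fold change 0.59 ± 0.11), against 1.21% of all genes. Between the active oligonucleotides, CDK4 was higher and CCNI lower in BPS2 than in BPS1, 2 of 9 against 3.93% of all genes. The median log2 fold change of the 9 genes was -0.04 for BPS1 and -0.03 for BPS2, and that of all genes was 0.00 in both. Values of control and BPS1 did not overlap for CDK4 and CCNI, as for 14.3% of all genes. Control and BPS2 did not overlap for CCND1 and CDKN1B (9.65% of all genes), nor BPS1 and BPS2 for CCND1, CDK4 and CCNI (11.9%). The 2 comparisons with control share the control libraries. The genes were chosen with earlier results of these data known, so these shares do not measure an excess of calls.

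**Figure D1:**
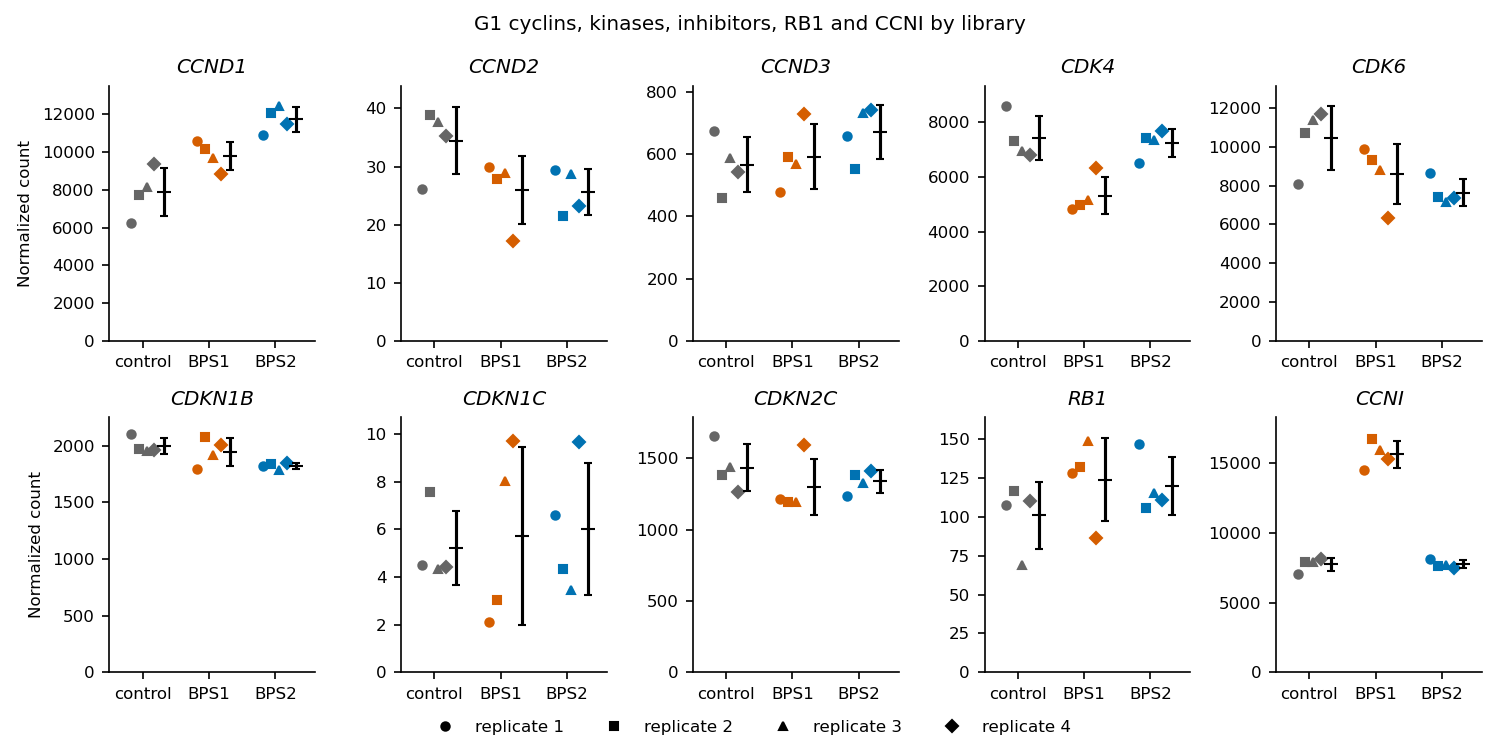
Normalized count of each gene (y axis, from 0) in the 12 libraries, by group (x axis), with marker shape giving the replicate number and the black bar the mean ± SD of 4 libraries. The 4 BPS1 values of CCNI lie between 14493 and 16766, above all 8 other libraries, and the 4 BPS1 values of CDK4 lie between 4822 and 6320, below them.

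Among the D-type cyclins, CCND1 was the predominant transcript. CCND1 (ENSG00000110092) lies on chromosome 11 at 69641087 to 69654474 of GRCh38, on the plus strand. The gene LTO1 overlaps it on the opposite strand. Its normalized count was 6245, 7746, 8174 and 9366 in control replicates 1 to 4, 10568, 10150, 9686 and 8837 with BPS1, and 10913, 12077, 12435 and 11516 with BPS2. All BPS2 libraries were above all control and BPS1 libraries, whereas BPS1 replicate 4 lay below control replicate 4. Means were 7883 ± 1289 (SD, n = 4), 9810 ± 742 and 11735 ± 666. The rise with BPS2 passed the test (adjusted p = 0.0159, 95% interval of the log2 fold change 0.36 to 0.81). That with BPS1 was 0.33 ± 0.11 (0.10 to 0.55, adjusted p = 0.0758) and the difference between BPS2 and BPS1 was 0.26 (0.03 to 0.49, adjusted p = 0.222). The BPS2 call was lost without BPS2 replicate 2, 3 or 4 or control replicate 2, with adjusted p between 0.0530 and 0.0703, while the log2 fold change stayed between 0.48 and 0.68 whichever library was left out. For BPS1, the call was gained without BPS1 replicate 4 (adjusted p = 0.0390) or control replicate 4 (adjusted p = 0.0260), while the log2 fold change was 0.22 without control replicate 1. With control replicate 1 and BPS1 replicate 4 both left out it was 0.27 with BPS1 (adjusted p = 0.0260) and 0.48 with BPS2 (adjusted p = 0.00180). Library weights (adjusted p = 0.0101) and a transcript length correction (adjusted p = 0.0274) also gave a call with BPS1.

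CCND3 and CCND2, the other D-type cyclins, were lower in abundance and were not called in any comparison. CCND3 (ENSG00000112576, chromosome 6, 41934933 to 42050357, minus strand) read 675, 461, 589 and 542 in control, 478, 591, 569 and 730 with BPS1, and 658, 554, 733 and 741 with BPS2. The 3 groups overlapped, with BPS2 reaching highest. Its log2 fold change was 0.06 with BPS1 (95% interval -0.26 to 0.38, adjusted p = 0.859) and 0.25 with BPS2 (-0.07 to 0.57, adjusted p = 0.577). The sign with BPS1 turned to -0.05 without BPS1 replicate 4 and to -0.03 without control replicate 2.

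CCND2 (ENSG00000118971, chromosome 12, 4273772 to 4305350, plus strand) was scarce, with 26.1, 38.9, 37.7 and 35.2 in control, 29.9, 27.9, 28.8 and 17.3 with BPS1, and 29.3, 21.5, 28.7 and 23.2 with BPS2. In control, 3 of 4 libraries lay above every library of the other groups, and control replicate 1 lay among them. The log2 fold change was -0.41 ± 0.22 with BPS1 (95% interval -0.87 to 0.06, adjusted p = 0.290) and -0.41 with BPS2 (adjusted p = 0.515). The gene CCND2-AS1 overlaps CCND2 on the opposite strand.

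Per kilobase of the longest coding transcript, a scale on which levels of different genes can be set side by side, CCND1 made up 88.1% ± 3.16 (SD, n = 4) of the summed D-type cyclins in control libraries. That share was 90.0% ± 2.22 with BPS1 and 90.5% ± 1.20 with BPS2, and the groups overlapped.

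Of the D-cyclin kinases, CDK4 was called and CDK6 was not. CDK4 (ENSG00000135446) lies on chromosome 12 at 57747727 to 57756013, on the minus strand. It read 8602, 7318, 6960 and 6809 in control, 4822, 4970, 5169 and 6320 with BPS1, and 6513, 7409, 7365 and 7669 with BPS2. Every BPS1 library was below every control and every BPS2 library, and BPS1 replicate 4 came closest to them. Means were 7423 ± 815 (SD, n = 4), 5320 ± 682 and 7239 ± 503. The fall with BPS1 passed the test (95% interval of the log2 fold change -0.69 to -0.27, adjusted p = 0.00903) and did so in 25 of 25 alternatives. With BPS2 the log2 fold change was -0.03 (-0.25 to 0.18, adjusted p = 0.941). BPS2 against BPS1, the direct test of that difference, gave 0.45 (0.24 to 0.66, adjusted p = 0.0215). The last call was lost without BPS1 replicate 1, 2 or 3 or BPS2 replicate 2, 3 or 4 (adjusted p between 0.0661 and 0.0761, log2 fold change between 0.41 and 0.54 whichever library was left out).

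CDK6 (ENSG00000105810, chromosome 7, 92604921 to 92836594, minus strand) read 8084, 10710, 11375 and 11694 in control, 9897, 9347, 8820 and 6341 with BPS1, and 8654, 7395, 7157 and 7361 with BPS2. Control replicate 1 was the lowest of its group and lay among the treated libraries, while the other 3 control libraries lay above all 8 of them. The log2 fold change was -0.29 ± 0.14 with BPS1 (95% interval -0.60 to 0.02, adjusted p = 0.258) and -0.44 ± 0.14 with BPS2 (-0.75 to -0.13, adjusted p = 0.209). Neither was called. Without both control replicate 1 and BPS1 replicate 4, CDK6 was called in both comparisons, at -0.27 with BPS1 (adjusted p = 0.0274) and -0.56 with BPS2 (adjusted p = 7.84e-04). In control replicate 1, BPS1 replicate 4 and BPS2 replicates 2 to 4 the deviation fell with transcript length. CDK6 was lower in them (6341 to 8084) than in all other libraries (8654 to 11694). Leaving out control replicate 1 and BPS1 replicate 4 thus kept that trend in BPS2 only. Its part in these calls was not tested beyond the length correction below. Without BPS1 replicate 4 alone CDK6 was called with BPS2 (adjusted p = 0.0463). It was also called with a transcript length correction (-0.25 with BPS1, adjusted p = 0.0237, and -0.38 with BPS2, adjusted p = 0.00868) and, for BPS2, with library weights (-0.53, adjusted p = 0.00206). A GC correction gave no CDK6 call in either comparison.

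Per kilobase, CDK4 made up 79.7% ± 4.11 (SD, n = 4) of the 2 kinases in control, 77.4% ± 5.16 with BPS1 and 84.1% ± 2.18 with BPS2. The share ran from 76.5% to 85.6% in control and from 73.2% to 84.8% with BPS1, so these groups overlapped over most of their range. BPS2 libraries lay between 80.8% and 85.4%. Control replicate 1, BPS1 replicate 4 and BPS2 replicates 2 to 4, whose deviation fell with transcript length, gave 84.8% to 85.6%. All other libraries, BPS2 replicate 1 among them, gave 73.2% to 80.8%. The part of that trend in the BPS2 share was not tested.

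**Figure D2:**
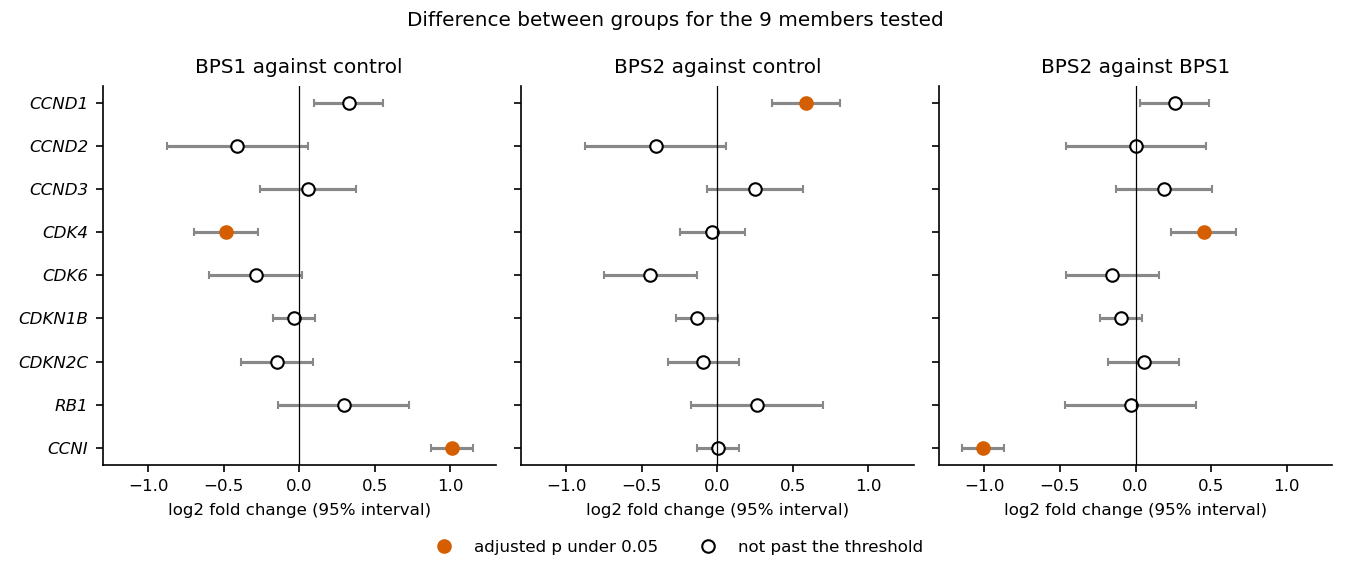
Log2 fold change (x axis) with its 95% interval from limma for the 9 tested genes (rows), in 3 panels, 1 per comparison; filled points passed the test. CCNI at 1.01 and CDK4 at -0.48 stand out with BPS1, CCND1 at 0.59 with BPS2.

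CDK4 shares its locus with other genes, MARCH9 on the opposite strand and MIR6759 on its own among them, neither of which was examined. TSPAN31, which encodes a tetraspanin membrane protein, lies on the opposite strand and overlaps the 3′ part of CDK4 by 2485 bases. TSPAN31 read 582, 491, 555 and 465 in control, 908, 1015, 940 and 1253 with BPS1, and 479, 551, 430 and 534 with BPS2. The 4 BPS1 libraries were above all others, the reverse of CDK4. Its log2 fold change was 0.97 ± 0.12 with BPS1 (adjusted p = 3.54e-04) and -0.07 with BPS2 (adjusted p = 0.882). BPS2 against BPS1 gave -1.04 (adjusted p = 3.80e-04). The library kit marks strand, but the sources used here do not give the strand setting of the counting, so reads of this overlap, and of those with MARCH9 and of LTO1 with CCND1, cannot be told apart with certainty. The nearest tested genes that do not overlap, AGAP2 (-0.69 with BPS1, adjusted p = 0.0654) and CYP27B1 (-0.99, adjusted p = 0.0776), did not pass with BPS1. In BPS2 against BPS1, CYP27B1 was higher by 1.38 (adjusted p = 0.0293), a call lost without BPS1 replicate 1, 2 or 3 or BPS2 replicate 1, 2 or 4 (adjusted p between 0.0508 and 0.0966), and AGAP2 gave 0.48 (adjusted p = 0.275).

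**Figure D3:**
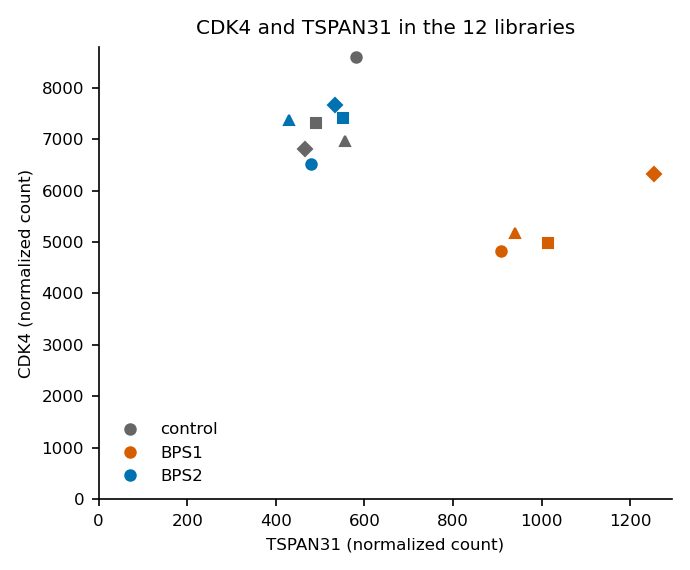
Normalized counts of TSPAN31 (x axis) and of CDK4 (y axis) in the 12 libraries, coloured by group, with marker shape giving the replicate number (circle 1, square 2, triangle 3, diamond 4). The 4 BPS1 libraries lie at 908 to 1253 for TSPAN31 and 4822 to 6320 for CDK4, apart from the other 8.

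For the genes that passed with BPS1, CDK4 and CCNI, the 250 bases before the first listed RefSeq start (1 of 1 for CDK4, 1 of 2 for CCNI) are shown, so that the genes that moved in opposite directions can be compared. Capitals mark the E-box CACGTG, the core sequence that MYC family proteins are known to bind, and the GC box GGGCGG, that of SP1 family proteins, on either strand. The CDK4 window is chr12:57752311-57752560 and the CCNI window is chr4:77075990-77076239, both read on the minus strand of GRCh38.p14, 5′ to 3′.
CDK4: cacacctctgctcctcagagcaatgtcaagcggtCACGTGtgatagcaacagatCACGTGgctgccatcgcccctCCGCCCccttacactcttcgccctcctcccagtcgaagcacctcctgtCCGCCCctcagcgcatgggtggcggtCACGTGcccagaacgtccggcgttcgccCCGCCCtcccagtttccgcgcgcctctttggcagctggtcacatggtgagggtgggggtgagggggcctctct
CCNI: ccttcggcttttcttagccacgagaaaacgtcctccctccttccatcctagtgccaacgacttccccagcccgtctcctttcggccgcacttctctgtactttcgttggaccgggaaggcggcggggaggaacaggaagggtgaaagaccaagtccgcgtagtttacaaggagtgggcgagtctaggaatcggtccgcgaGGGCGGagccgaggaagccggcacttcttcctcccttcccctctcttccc
The CDK4 window held 3 E-boxes, starting at positions -216, -196 and -101 from the start, and 3 GC boxes. The CCNI window held 0 E-boxes and 1 GC box at -50, and the window of its other start, not shown, held 0 and 1. Among 27305 RefSeq windows of the same length, 6.49% held at least 1 E-box and 24 held 3 or more. At least 1 GC box was in 42.3% of them and 3 or more in 14.0%. Neither the E2F motifs TTTGGCGC and TTTCCCGC (1.96% of windows, both strands) nor the AP-1 motif TGACTCA (4.16%) was in either window. These matches describe the letters only. MYCN itself was not called with BPS1 (log2 fold change -0.19, adjusted p = 0.115). That is a level of RNA, and any part of MYCN in the CDK4 difference was not tested.

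The inhibitors were not called in any comparison. CDKN1B (ENSG00000111276, chromosome 12, 12715058 to 12722371, plus strand), which encodes p27, read 2106, 1971, 1951 and 1958 in control, 1791, 2077, 1919 and 2010 with BPS1, and 1820, 1835, 1785 and 1845 with BPS2. All BPS2 libraries lay below all control libraries, by a small margin. The log2 fold change was -0.13 with BPS2 (95% interval -0.27 to 0.01, adjusted p = 0.470) and -0.04 with BPS1 (-0.18 to 0.10, adjusted p = 0.796).

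CDKN2C (ENSG00000123080, chromosome 1, 50960745 to 50974633, plus strand), which encodes the INK4 protein p18, read 1655, 1379, 1434 and 1260 in control, 1213, 1193, 1191 and 1590 with BPS1, and 1232, 1380, 1327 and 1412 with BPS2. In BPS1, 3 of 4 libraries lay below all control libraries and replicate 4 lay among them. The log2 fold change was -0.15 ± 0.11 with BPS1 (95% interval -0.38 to 0.09, adjusted p = 0.473) and -0.09 with BPS2 (adjusted p = 0.816).

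CDKN1C, which encodes p57, was close to the detection limit, with 4.51, 7.56, 4.34 and 4.44 in control, 2.10, 3.05, 8.03 and 9.70 with BPS1, and 6.59, 4.35, 3.45 and 9.66 with BPS2. The groups overlapped throughout, and an exact two-sided permutation test gave p = 0.914 with BPS1 and 0.714 with BPS2, where the smallest p that 70 arrangements allow is 0.0286. Its row carries the identifier ENSG00000273707, which GENCODE release 29 does not hold, while the identifier that release gives for CDKN1C has 0 rows here, so the level of the CDKN1C locus is uncertain.

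RB1 (ENSG00000139687, chromosome 13, 48303726 to 48599436, plus strand), whose protein holds E2F factors in check, was low throughout. It read 108, 116, 68.7 and 110 in control, 128, 132, 149 and 86.3 with BPS1, and 147, 106, 115 and 111 with BPS2. Control replicate 3 and BPS1 replicate 4 were the lowest libraries, and the groups overlapped. The log2 fold change was 0.29 ± 0.20 with BPS1 (95% interval -0.14 to 0.73, adjusted p = 0.429) and 0.26 with BPS2 (adjusted p = 0.693). Several genes lie inside RB1 on the opposite strand, LPAR6 among them.

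CCNI had the largest change of the 10 genes. CCNI (ENSG00000118816) lies on chromosome 4 at 77047158 to 77076005, on the minus strand, with no annotated gene overlapping it. It read 7041, 7916, 7926 and 8111 in control, 14493, 16766, 15989 and 15329 with BPS1, and 8151, 7656, 7702 and 7522 with BPS2. Each BPS1 library was well above each of the other 8, and control and BPS2 libraries overlapped. Means were 7748 ± 480 (SD, n = 4), 15644 ± 966 and 7758 ± 273. The 95% interval of the log2 fold change with BPS1 was 0.87 to 1.15 (adjusted p = 1.82e-06), and by p-value CCNI stood at rank 10 of the 20454 genes tested. With BPS2 the log2 fold change was 0.00 (-0.14 to 0.14, adjusted p = 0.992). BPS2 against BPS1 gave -1.01 (-1.15 to -0.87, adjusted p = 1.90e-06). Both CCNI calls held in 25 of 25 alternatives, and leaving out any 1 library kept the log2 fold change with BPS1 between 0.97 and 1.05.

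**Figure D4:**
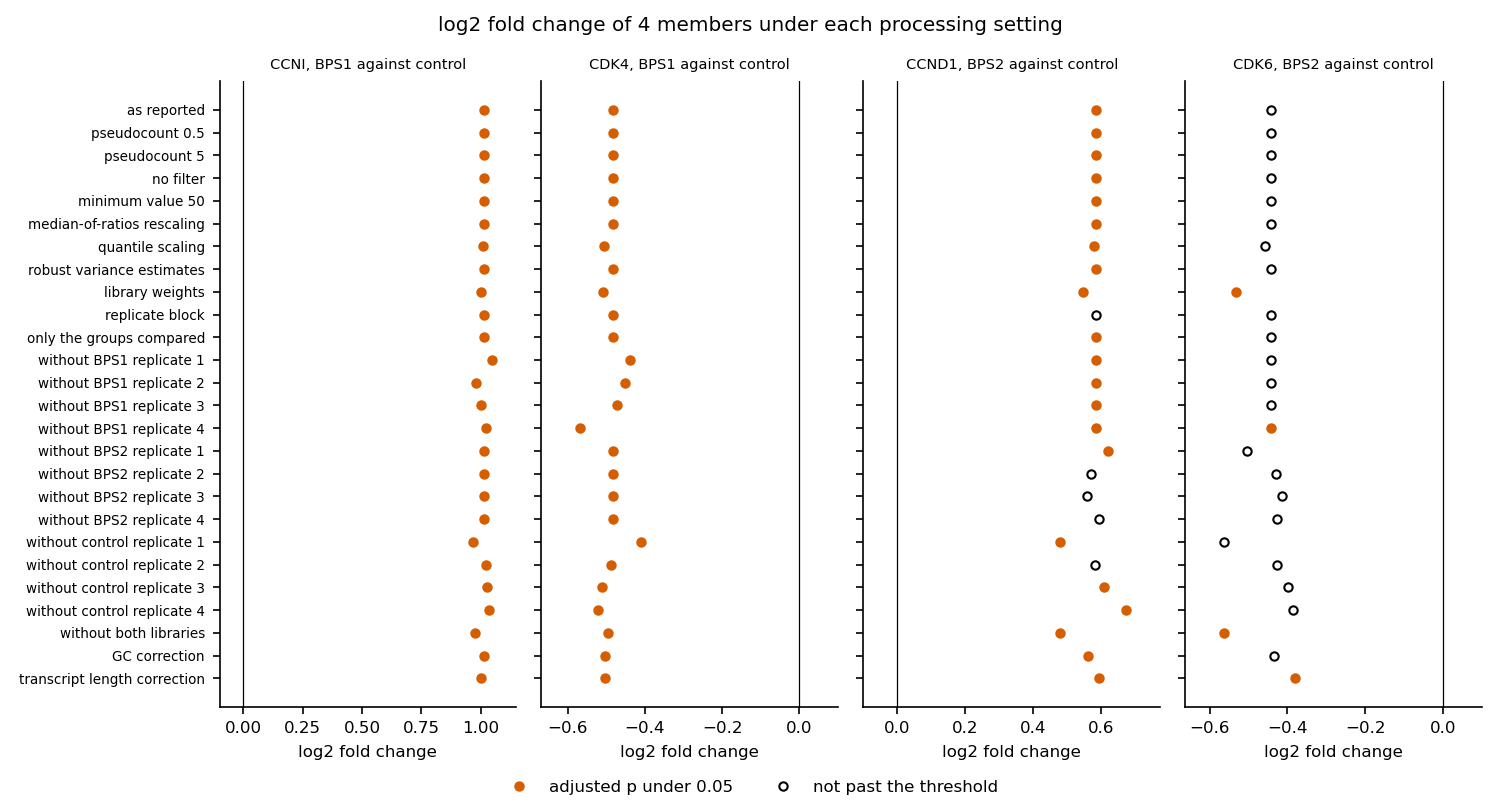
Log2 fold change (x axis) of CCNI and CDK4 with BPS1 and of CCND1 and CDK6 with BPS2 under each processing setting (rows); "without both libraries" leaves out control replicate 1 and BPS1 replicate 4, and filled points passed at an adjusted p under 0.05. CCNI and CDK4 passed in 25 of 25 alternatives, CCND1 in 20 and CDK6 in 4.

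In control libraries the order of levels per kilobase was CDK4 (3575), CCNI (2795), CCND1 (1830), CDK6 (901), CDKN1B (751), CDKN2C (493), CCND3 (237), RB1 (21.0) and CCND2 (5.32). Of the neighbours in that order, only CDK6 and CDKN1B had overlapping libraries. With BPS1 the order began with CCNI (5644), followed by CDK4 (2563) and CCND1 (2278), whose libraries overlapped. With BPS2 it began with CDK4 (3487), followed by CCNI (2799) and CCND1 (2725), whose libraries overlapped. CDK6 and CDKN1B overlapped in every group. From CDKN2C down, the order was the same in the 3 groups. Lengths are those of GENCODE release 29, and which isoform KELLY cells use was not tested.

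The libraries that stood apart deviated the same way for several of these genes. Against the mean of the other 3 libraries of its group, CDK6 was 0.48 (log2) lower in control replicate 1 and 0.56 lower in BPS1 replicate 4, written as -0.48 and -0.56. CCND1 deviated by -0.43 and -0.20, and CCND2 by -0.49 and -0.71. In the other direction, CCND3 deviated by 0.35 and 0.42, CDK4 by 0.29 and 0.34 and CDKN2C by 0.29 and 0.41. CDKN1B (0.10 and 0.06) and CCNI (-0.18 and -0.04) deviated least. RB1 went opposite ways, 0.17 and -0.65. The part of these libraries in the CDK6 and CCND1 results is given by the values without them above, and the source of their deviation was not tested.

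**Figure D5:**
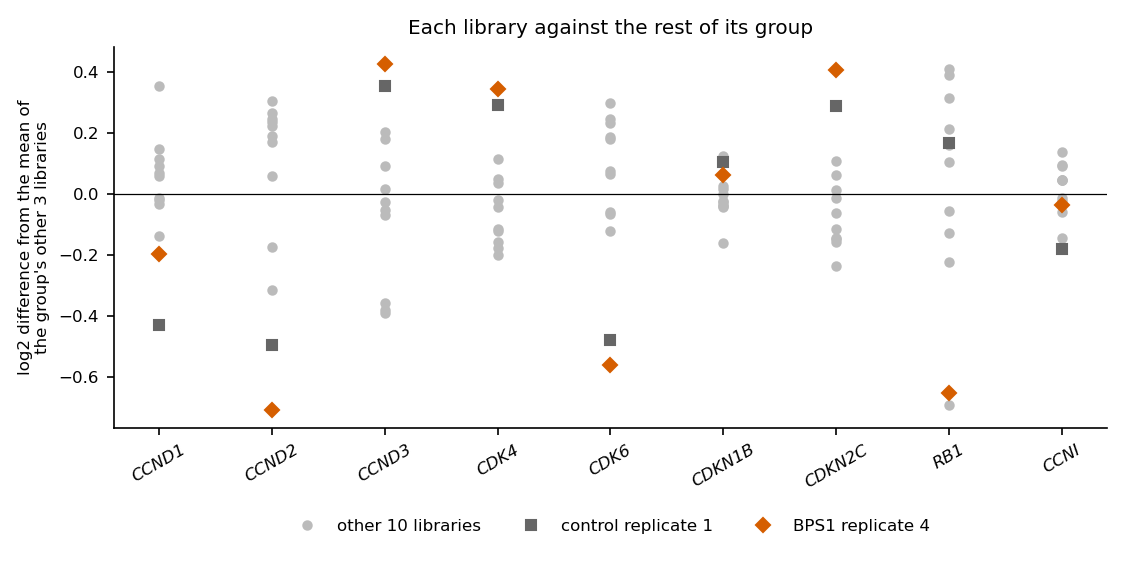
Log2 difference of each library from the mean of the other 3 libraries of its group (y axis) for the 9 tested genes (x axis), with control replicate 1 as squares, BPS1 replicate 4 as diamonds and the other 10 libraries in grey. Both marked libraries lie low for CCND1, CCND2 and CDK6 and high for CCND3, CDK4 and CDKN2C.

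Around these genes, 6 lists of cell cycle genes held 102 genes, of which 99 were tested. The lists too were chosen with earlier results of these data known, so their shares do not measure an excess of calls. With BPS1 7 rose and 6 fell (13.1% of those tested, against 8.6% of all genes), with BPS2 2 rose and 0 fell (2.02%, against 1.21%), and in BPS2 against BPS1 4 rose and 2 fell (6.06%, against 3.93%). Of the 23 G1-to-S regulators, 0 were called in either comparison with control (9 and 1 of them had an unadjusted p under 0.05, as did 22.5% and 11.4% of all genes), with a median log2 fold change of 0.09 with BPS1 and 0.04 with BPS2. CCNE1, the cyclin that follows the D-type cyclins, averaged 618, 672 and 618 in control, BPS1 and BPS2, and its kinase CDK2 2115, 1965 and 2171. E2F1, the factor that RB1 restrains, averaged 4114, 4622 and 4253 (log2 fold change 0.16 with BPS1, adjusted p = 0.383, and 0.05 with BPS2, adjusted p = 0.899). CDK2 passed with BPS1 only without both libraries that stood apart (-0.20, adjusted p = 0.0287) or with library weights (-0.18, adjusted p = 0.0429). In BPS2 against BPS1, 1 of the 23 fell, TFDP2, an E2F partner (-0.25, adjusted p = 0.0409).

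Among the other CDK inhibitors 4 of 5 were tested, CDKN2B being too low, and CDKN1A fell with BPS1. CDKN1A, which encodes the CIP/KIP inhibitor p21, averaged 1634 ± 97.1 (SD, n = 4) in control, 1077 ± 90.1 with BPS1 and 1922 ± 169 with BPS2. Its log2 fold change was -0.60 with BPS1 (adjusted p = 9.30e-04) and 0.23 with BPS2 (adjusted p = 0.30), and BPS2 against BPS1 gave 0.83 (adjusted p = 1.47e-04). CDK4 and CDKN1A were thus both lower with BPS1.

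Of the other cyclins 18 of 19 were tested (all but CCNO), and 3 fell and 0 rose with BPS1, where 883 of all genes fell and 877 rose (8.6% in all). CCNYL1, a relative of the membrane-bound cyclin Y, fell by 0.84 (log2, adjusted p = 0.00104), and CCNC, the cyclin of the Mediator kinase module, by 0.35 (adjusted p = 0.0115). Both were higher with BPS2 than with BPS1, by 0.89 (adjusted p = 0.00132) and 0.52 (adjusted p = 0.00175). CCNL2, a cyclin linked to splicing, fell by 0.19 (adjusted p = 0.0212), a call lost without BPS1 replicate 2 or 3 or control replicate 2 or 4 (adjusted p between 0.0515 and 0.0754). Of the 18 other CDKs and CDK5 activators, 1 rose with BPS1, CDK8, the kinase that CCNC binds (0.36, adjusted p = 0.0240). That call was lost without BPS1 replicate 3 or control replicate 1, 2 or 3 (adjusted p between 0.0511 and 0.0686).

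Of the 20 E2F target genes, which act in S phase, 2 rose and 1 fell with BPS1 (8.6% of all genes were called), with a median log2 fold change of 0.10. RRM1, a subunit of ribonucleotide reductase, rose by 0.39 (adjusted p = 0.00202) and CDT1, which licenses replication origins, by 0.57 (adjusted p = 0.0153). POLA1, the catalytic subunit of DNA polymerase alpha, fell by 0.73 (adjusted p = 1.50e-04). With BPS2 0 of the 20 passed (3 had an unadjusted p under 0.05, as did 11.4% of all genes; median 0.08). BPS2 against BPS1 gave 0.81 for POLA1 (adjusted p = 1.04e-04) and -0.33 for RRM1 (adjusted p = 0.00949).

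Among the transcriptional regulators of G1 genes, 16 of 17 were tested (all but MYC). With BPS1 4 rose and 1 fell (8.6% of all genes were called), and with BPS2 2 rose and 0 fell (1.21%). The ID genes encode inhibitors of basic helix-loop-helix factors. ID1 rose by 1.45 with BPS1 (adjusted p = 1.60e-04) and by 1.29 with BPS2 (adjusted p = 0.00171). ID2 rose by 0.37 with BPS1 (adjusted p = 0.00896) and by 0.44 with BPS2 (adjusted p = 0.0141), the latter call being lost without BPS2 replicate 3 or 4 or control replicate 2 or 3 (adjusted p between 0.0559 and 0.0617). ID3 rose by 0.58 with BPS1 (adjusted p = 0.0363), a call lost when BPS1 replicate 3, BPS2 replicate 2, 3 or 4, or control replicate 2, 3 or 4 was left out (adjusted p between 0.0506 and 0.103). With BPS2 the log2 fold change of ID3 was 0.66 (adjusted p = 0.0641), which passed in 8 of 25 alternatives, among them those without BPS1 replicate 4 (adjusted p = 0.00152) or control replicate 1 (adjusted p = 0.0459). LIN9, a subunit of the DREAM complex, rose by 0.37 with BPS1 (adjusted p = 0.0119). FOXO4 fell by 0.85 with BPS1 (adjusted p = 0.0347), a call lost when BPS1 replicate 1, 2 or 3, BPS2 replicate 2, or control replicate 1, 2 or 4 was left out (adjusted p between 0.0505 and 0.0913). ID1 and ID2 were the 2 genes of the 6 lists that passed with BPS2.

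For the 3 genes that were called, the most similar patterns were sought among 13974 genes with a mean of at least 50, as Pearson's r of log2(value + 1) over the 12 libraries, which share group structure and library effects. For CCNI these were GDI2 (r = 0.991), CEPT1 (0.990) and DDX58 (0.988). GDI2, a regulator of Rab proteins, averaged 8244, 17513 and 8750 in control, BPS1 and BPS2. For CDK4 they were GSTM1 (0.983), EIF3L (0.981) and TOMM7 (0.980), and for CCND1 RFK (0.947), NEPRO (0.939) and NLRP1 (0.935).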

How the data were processed

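Total RNA depleted of ribosomal RNA was read as single reads of 100 bases in 12 libraries, per the labels' protocols. The authors deposited a normalized count, a signal with no negative values, for each gene and library. FastQC 0.11.7, Salmon 0.8.2, DESeq2 and GRCh38 are named per the submitters' processing notes. For the annotation release, the step from transcripts to genes and the strand setting, the sources used here say nothing. Low values came in steps of 0.940 to 1.09, taken as the worth of 1 read, and a library's total over its step is the estimated depth. Values in all libraries were whole multiples of the step (tolerance 0.001) for 23.1% of tested genes and for 0 of the 10 described, so reads were not recovered and no count test was run.

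One limma fit (limma 3.58.1, R 4.3.3; eBayes with trend) on log2(value + 1) had group as its only term. That scale understates the change of low genes. Values are mean ± SD with n = 4, and fold changes carry the SE of the fit. Rows in whole multiples gave a chi-square per gene of 1.76 to 15.9 between replicates, more than sampling noise, and every library was used as its own replicate. Same-numbered libraries did not deviate together (correlations of deviations -0.272 to 0.103), so replicate numbers were not taken to pair libraries.

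The genes, lists and rules were chosen with earlier results of these data known. The rule named the 10 genes, NEAT1, up to 6 members per list that passed in a comparison with control, CCNE1, CDK2, CDKN1A and E2F1, and 3 most similar genes per called gene. TSPAN31, AGAP2, CYP27B1, LPAR6, CCND2-AS1, MYCN and TFDP2 are named outside that rule, after values were seen. The alternatives changed the pseudocount (0.5 or 5), the filter (none, or a minimum of 50), the scaling (median of ratios, or quantile), the variance model (robust, or weights per library), the design (replicate block, or only the groups compared) and the libraries (each left out in turn, or both control replicate 1 and BPS1 replicate 4). A GC correction was also run, and a transcript length correction was added after seeing the data. Positions and lengths come from GENCODE 29 (GRCh38), where 53405 of 55771 identifiers were found. Promoters are RefSeq's on GRCh38.p14, and CCND1, CCND2 and CDKN1C had no entry. The fit was tested on simulated data, with 100 genes changed 1.5-fold and 100 changed 2-fold in BPS1. Against control it called 18 and 63 of them, with 0 false calls. Over genes of all levels, one without a call may thus still differ by such amounts. The changed genes were picked at random, so these shares do not measure what was detectable for the genes described. For those the 95% intervals apply, such as -0.18 to 0.10 for CDKN1B with BPS1 and -0.14 to 0.73 for RB1 with BPS1.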

Additional observations from a re-analysis of the deposited data

Results flagged for a closer look

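Among 30 combinations of gene and group, 5 had 1 library far from the other 3 (Dixon's criterion), where chance gives about 1 in 20. CCND2 was low in BPS1 replicate 4, at 17.3 against 27.9 to 29.9 in the other BPS1 libraries, and CDKN2C was high there, at 1590 against 1191 to 1213. BPS1 replicate 4 is one of the libraries that stood apart over all genes, as is control replicate 1, where CDKN1B was high, at 2106 against 1951 to 1971. CDK6 was high in BPS2 replicate 1, at 8654 against 7157 to 7395. That was the only BPS2 library whose deviation rose with transcript length (Spearman's rho 0.15). CDK6 has the longest transcript (11612 bases) of the genes described here with an annotated length. CDKN1C, near the detection limit, was high in control replicate 2, at 7.56 against 4.34 to 4.51.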

How the results depend on the processing

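CCNI and CDK4 with BPS1, and CCNI in BPS2 against BPS1, passed in 25 of 25 alternatives. Counts moved more. With library weights, the genes called were 3382 for BPS1 (1760 as reported), 1296 for BPS2 (247) and 3626 for BPS2 against BPS1 (803). Of the 10 genes, 2 and 4 were called with weights for BPS2 and BPS2 against BPS1, and of the list genes 27, 10 and 27. With control replicate 1 and BPS1 replicate 4 both left out, the counts were 2772, 1923 and 3498 for all genes, 4, 2 and 4 for the 10 genes, and 25, 19 and 29 for the lists. A transcript length correction gave 4 of the 10 genes for BPS1 and 2 for BPS2, and 22 list genes for BPS1. Fits of only the groups compared gave 927 genes for BPS1 and 4 list genes for BPS2, and quantile scaling gave 10 list genes for BPS2 against BPS1. With both libraries left out, only BPS2 replicates 2 to 4 had a deviation that fell with transcript length. That trend then lay mostly between BPS2 and the other groups. Its part in these counts, and the cause of the other shifts, was not tested.

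With the replicate block, which the data did not support as a pairing (1 of 12 correlations was highest with its own number), the genes called were 1067, 118 and 447. Of the 10 genes, 2, 0 and 1 were called, and of the list genes 10, 1 and 5. CCND1 with BPS2 then had an adjusted p of 0.0658 and CDK4 in BPS2 against BPS1 one of 0.0749.

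Leaving out 1 library at a time gave 1103 to 2359 genes for BPS1, 113 to 535 for BPS2 and 471 to 1756 for BPS2 against BPS1. The lowest BPS1 counts were without control replicate 2 (1103) and BPS1 replicate 3 (1139). The highest for BPS2 (535) and for BPS2 against BPS1 (1756) were without BPS1 replicate 4. The 10 genes gave 2 to 3, 0 to 2 and 1 to 2 calls, and the lists 9 to 21, 1 to 5 and 5 to 16.

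Signs that reversed were all of differences without a call. CCND2 in BPS2 against BPS1 went to -0.000613 with a pseudocount of 5, -0.18 with library weights and -0.17 without both libraries. CDK4 with BPS2 went to 0.026 with weights and 0.040 without both libraries. CCNI with BPS2 went to -0.010 with quantile scaling, -0.033 with weights, -0.042 without both libraries and -0.0052 with the length correction. CCNE1 with BPS2 went to -0.013 with quantile scaling, -0.0026 with the GC correction and -0.012 with the length correction, and E2F1 to -0.012 with the GC correction. CDK2 with BPS2 went to -0.0093 without both libraries. In BPS2 against BPS1, ID1 went to 0.019 with weights and 0.042 without both libraries.

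Over the fits that left out 1 library, CCND2 in BPS2 against BPS1 ran from -0.17 to 0.081, CCND3 with BPS1 from -0.046 to 0.16, CDK4 with BPS2 from -0.072 to 0.040, CDKN1B with BPS1 from -0.067 to 0.0038, RB1 in BPS2 against BPS1 from -0.20 to 0.065 and CCNI with BPS2 from -0.042 to 0.026. With BPS2, CCNE1 ran from -0.047 to 0.070, CDK2 from -0.0093 to 0.065 and CCNYL1 from -0.0066 to 0.093. In BPS2 against BPS1, ID1 ran from -0.25 to 0.042. The spread between libraries limits what is detectable: for RB1 the 95% interval with BPS1 ran from -0.14 to 0.73.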
